A study of Homo sapiens with 6 samples.

Results

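Cyclins and cyclin-dependent kinases (CDKs) drive the cell cycle, and CDKN1A (p21) restrains them. The 10 genes described here are the D cyclins CCND1 and CCND3, the E cyclins CCNE1 and CCNE2, CCNA2, CCNB1, the kinases CDK1, CDK2 and CDK4, and the inhibitor CDKN1A. They were taken by symbol from a table of 22152 genes, and each symbol had 1 row there. The libraries come from HaCaT cells, a spontaneously immortalized human keratinocyte line. Cultures received 1 nM of a miR-21-3p mimic, a synthetic copy of the passenger strand of the miR-21 hairpin, or 1 nM of a negative control (NC) mimic, and RNA was taken 48 h later. Each group holds 3 libraries of polyadenylated RNA, described as biological replicates. About 24400000 to 28000000 gene-assigned reads per library lay behind the values. HaCaT is an aneuploid line with altered p53, which limits it as a model of normal keratinocytes.

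Each CDK works only when bound to a cyclin. In G1, D cyclins with CDK4 (or CDK6) begin to phosphorylate RB, which frees E2F factors. E cyclins with CDK2 complete that step at the entry into S phase, cyclin A acts through S phase and G2, and cyclin B with CDK1 starts mitosis. CDKN1A binds cyclin-CDK complexes, is a p53 target, and is known in the epidermis for its role when basal keratinocytes stop dividing. Transcripts of CCNA2, CCNB1 and CDK1 are periodic in dividing cells, whereas CCND1 and CDK4 transcripts follow growth signals more than phase. The comparison asks which of these transcripts differ when keratinocytes carry more miR-21-3p.

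The S and mitotic genes rose the most with the miR-21-3p mimic, at 1.31 to 1.36 times their NC level. The G1/S genes CCNE2 and CDK2 and the G1 cyclin CCND3 rose by less. CCND1 was 1.08 times its NC level and CDKN1A 0.953 times, and neither passed the test. In all, 6 of the 10 genes were called higher and 0 lower at a limma adjusted p under 0.05. Over all 14795 genes tested, 6.11% were called higher and 4.66% lower, 10.8% in either direction. In 9 of the 10 genes all 3 miR-21-3p libraries lay above all 3 NC libraries, as did 16.5% of all genes tested (14.8% lay below). The median log2 fold change was 0.27 over the 10 genes and 0.00 over all genes tested. The difference between the gene groups was not itself put to a test. In bulk RNA, more cells in a phase and more RNA per cell cannot be told apart.

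NC replicate 2 stood nearer to the miR-21-3p libraries than the other NC libraries did. It was the highest NC library for 7 of the 10 genes, and for 62.2% of the tested genes with all 3 miR-21-3p libraries above all 3 NC libraries. On the first principal component of all tested genes, which held 46.7% of the variance, it lay at -1.95, between NC replicates 1 and 3 (-21.25 and -13.34) and the miR-21-3p libraries (6.86 to 17.85). Without NC replicate 2, 7 of the 10 genes were called, beside 2957 of the 14795 genes tested. With any of NC replicate 1, NC replicate 3, miR-21-3p replicate 1 or miR-21-3p replicate 3 left out, 3 were called, and those were CCNA2, CCNB1 and CDK1 each time. Over all genes tested, 3.66%, 1.19%, 1.87% and 2.47% were called in those 4 settings. The share of normalized counts from mitochondrial genes also moved with the groups, at 9.01%, 8.91% and 9.42% in the NC libraries against 8.40%, 8.61% and 8.33% in the miR-21-3p libraries, and its part in the results was not tested.

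**Figure D1:**
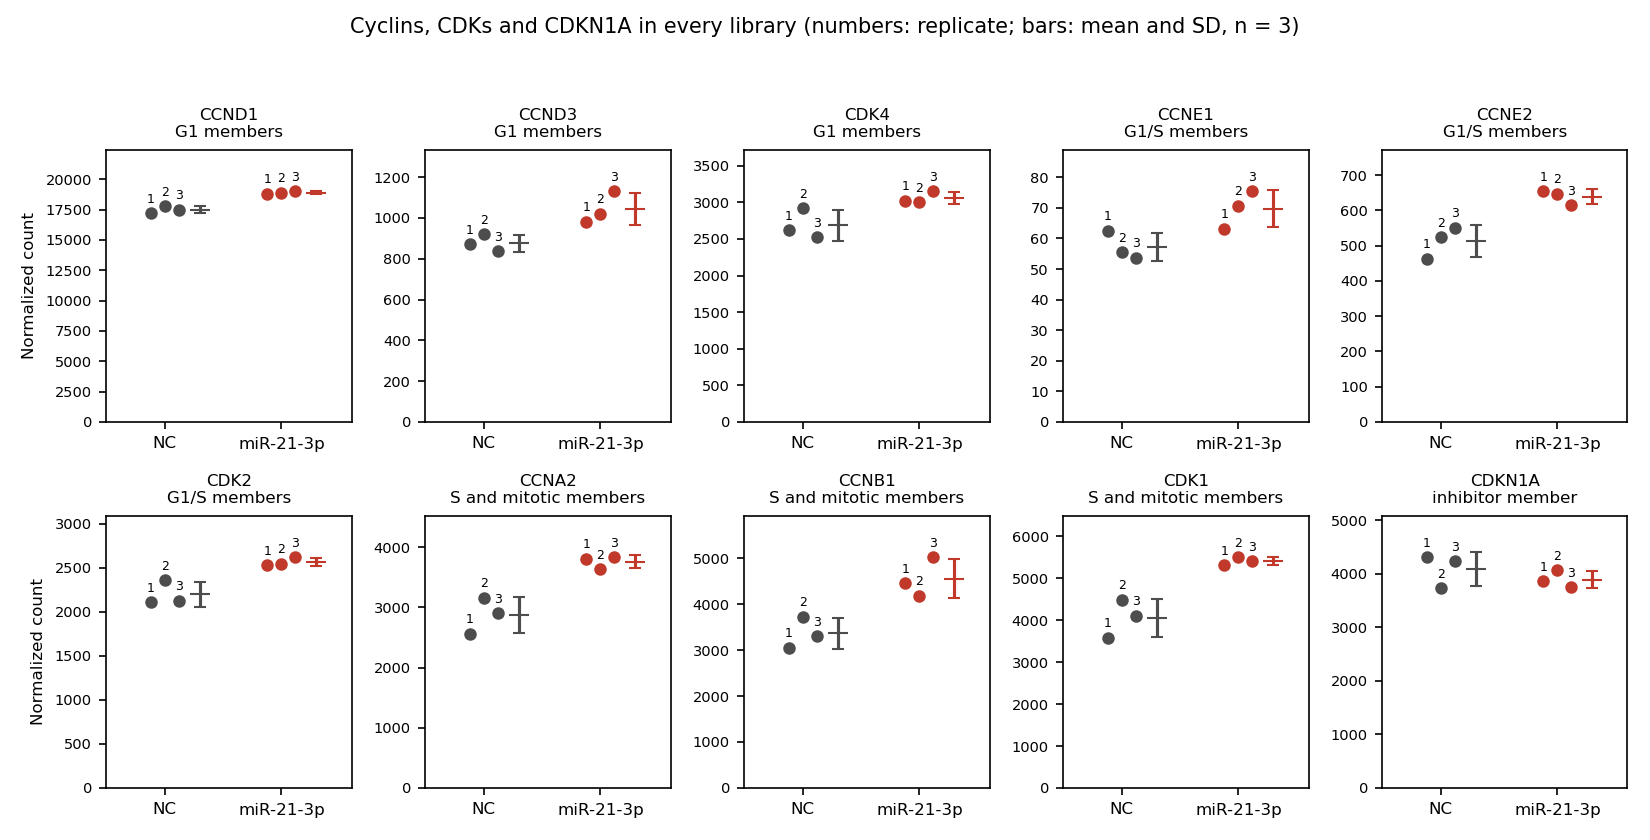
Normalized count (y axis, from 0) of each of the 10 genes in the 3 NC and 3 miR-21-3p libraries, with the replicate number at each point and the mean and SD (n = 3) beside them. In 9 genes the miR-21-3p points all lie above the NC points, and in CDKN1A they overlap.

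Among the S and mitotic genes, CDK1, the kinase that triggers mitosis, had normalized counts of 3580, 4490 and 4110 in NC replicates 1 to 3. With the miR-21-3p mimic it had 5310, 5500 and 5410. All 3 miR-21-3p values lay above the highest NC value, and CDK1 rose by 0.42 ± 0.07 (log2 fold change ± SE, n = 3 per group, limma adjusted p = 0.00554). CCNB1, the mitotic cyclin that activates CDK1, had 3050, 3730 and 3310 in the NC libraries. It had 4460, 4190 and 5020 with miR-21-3p, again without overlap, and rose by 0.44 ± 0.08 (limma adjusted p = 0.00781). CCNA2, the cyclin of S phase and G2, had 2560, 3160 and 2900 in the NC libraries. It had 3810, 3630 and 3830 with miR-21-3p and rose by 0.39 ± 0.07 (limma adjusted p = 0.00700). These were the only 3 of the 10 genes with an adjusted p under 0.01. Their calls at 0.05 held with each library left out, with adjusted p up to 0.0408 for CDK1, 0.0484 for CCNB1 and 0.0488 for CCNA2.

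The promoter windows of these 3 genes, whose calls held with each library left out, are shown beside that of CDK4, a G1 gene. RefSeq-based windows of 300 bases (250 before to 50 after a transcript start, GRCh38.p14) were matched for 7 of the 10 genes. CCND1, CCNE2 and CDK2 were not matched. Each line is written 5′ to 3′ on the gene's strand. Capitals mark matches on either strand to the CCAAT box (CCAAT), to the cell cycle homology region (the form TTTGAA, the form CTTGAA, the form TTTAAA or the form TTCGAA), to an E2F motif (the form TTTCGCGC, the form TTTGGCGC, the form TTTCCCGC or the form TTTGCCGC) or to the E-box (CACGTG). No matches in these windows overlapped each other.
CDK1, chr10:60778228-60778527, plus strand: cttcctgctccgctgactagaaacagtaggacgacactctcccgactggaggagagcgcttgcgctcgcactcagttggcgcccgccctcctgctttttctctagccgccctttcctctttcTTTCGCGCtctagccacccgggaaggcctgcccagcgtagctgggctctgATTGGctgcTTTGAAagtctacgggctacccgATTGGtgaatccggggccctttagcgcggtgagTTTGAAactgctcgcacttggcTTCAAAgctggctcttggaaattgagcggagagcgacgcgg
CCNB1, chr5:69166900-69167199, plus strand: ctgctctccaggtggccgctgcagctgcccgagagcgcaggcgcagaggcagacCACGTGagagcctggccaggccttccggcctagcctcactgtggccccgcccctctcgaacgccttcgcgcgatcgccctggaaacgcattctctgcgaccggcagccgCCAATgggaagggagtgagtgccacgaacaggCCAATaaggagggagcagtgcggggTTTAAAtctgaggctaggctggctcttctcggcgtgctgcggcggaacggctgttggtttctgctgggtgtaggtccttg
CCNA2, chr4:121823834-121824133, minus strand: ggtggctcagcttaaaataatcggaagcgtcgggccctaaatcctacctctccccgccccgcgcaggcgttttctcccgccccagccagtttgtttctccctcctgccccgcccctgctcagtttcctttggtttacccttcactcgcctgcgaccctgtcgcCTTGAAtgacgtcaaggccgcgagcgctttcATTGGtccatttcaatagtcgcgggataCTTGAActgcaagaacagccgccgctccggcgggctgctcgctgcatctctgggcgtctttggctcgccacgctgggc
CDK4, chr12:57752261-57752560, minus strand: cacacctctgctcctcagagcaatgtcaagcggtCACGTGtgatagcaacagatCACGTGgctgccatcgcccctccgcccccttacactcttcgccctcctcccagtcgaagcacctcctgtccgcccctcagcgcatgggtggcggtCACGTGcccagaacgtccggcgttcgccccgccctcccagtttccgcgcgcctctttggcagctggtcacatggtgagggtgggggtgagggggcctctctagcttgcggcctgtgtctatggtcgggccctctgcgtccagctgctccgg

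The CDK1 window held 2 CCAAT boxes on the other strand, starting 78 and 46 bases upstream of the start, and 3 cell cycle homology matches. CDK1 has another annotated start with a window that overlaps the printed window, and that window held 1 CCAAT box and 2 homology matches. The CCNB1 window held 2 CCAAT boxes, at 87 and 55 bases upstream, a TTTAAA 30 bases upstream and 1 E-box 196 bases upstream. The CCNA2 window held 1 CCAAT box on the other strand, 56 bases upstream, and CTTGAA at 87 and 28 bases upstream. The CDK4 window held no CCAAT box and no homology match, and had 3 E-boxes, at 216, 196 and 101 bases upstream. Of all 35116 windows of this length, 34.6% held a CCAAT box, 32.2% a homology match and 12.4% both, while 3.31% held an E2F motif and 7.26% an E-box. The CCND3 windows (3 starts) and the CCNE1 and CDKN1A windows held no pair of a CCAAT box and a homology match. A CCAAT box stood 64 bases upstream in a CCND3 window and 136 bases upstream in another. The CCNE1 window held a TTTAAA 28 bases upstream. Only CDK1 among the matched genes held an E2F motif. These matches describe letters in a window.

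Of the G1/S genes, CDK2, the partner of cyclins E and A, had 2110, 2360 and 2130 normalized counts in the NC libraries. It had 2530, 2550 and 2620 with miR-21-3p, all above the NC values. CDK2 rose by 0.22 ± 0.05 (limma adjusted p = 0.0212). CCNE2, an E cyclin, had 463, 524 and 551 in the NC libraries and 654, 648 and 614 with miR-21-3p. The groups did not overlap and CCNE2 rose by 0.32 ± 0.08 (limma adjusted p = 0.0220). CCNE1, the other E cyclin, was the least abundant of the 10 genes, with 54 to 84 reads per library. Its normalized counts were 62.5, 55.6 and 53.7 in the NC libraries and 63.2, 70.7 and 75.4 with miR-21-3p. The lowest miR-21-3p value was next to the highest NC value, and the log2 fold change of CCNE1, 0.28 with a 95% interval from -0.05 to 0.61, did not pass the test (limma adjusted p = 0.242). A difference in fold change between CCNE1 and CCNE2 was not tested. The calls of CDK2 and CCNE2 were lost with NC replicate 1, NC replicate 3, miR-21-3p replicate 1 or miR-21-3p replicate 3 left out, with adjusted p of up to 0.108.

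**Figure D2:**
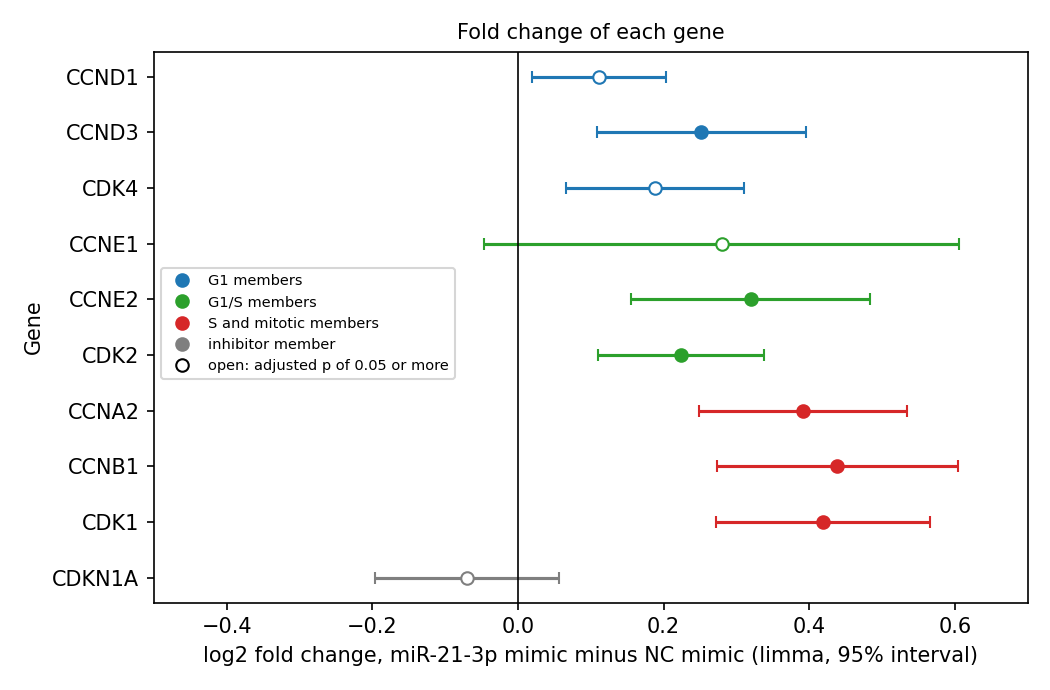
log2 fold change of each gene, miR-21-3p mimic minus NC mimic (x axis), with its 95% interval from the limma fit, not adjusted for the number of genes. Filled points have an adjusted p under 0.05. CCNA2, CCNB1 and CDK1 lie at 0.39 to 0.44 and CDKN1A at -0.07.

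Among the G1 genes, CCND1 (cyclin D1), which partners CDK4 and CDK6, had 17200, 17800 and 17500 normalized counts in the NC libraries. With miR-21-3p it had 18800, 18900 and 19000. Every miR-21-3p value lay above every NC value, with SDs of 100 (miR-21-3p) and 300 (NC), and its fold change was the smallest of the 9 cyclins and kinases. The log2 fold change of CCND1 was 0.11 ± 0.04 (95% interval 0.02 to 0.20, limma adjusted p = 0.107), so it was not called, and it was not called under any alternative (adjusted p 0.0841 to 0.298). CCND3 (cyclin D3) had 871, 919 and 836 in the NC libraries and 981, 1020 and 1130 with miR-21-3p. The groups were apart and CCND3 rose by 0.25 ± 0.07 (limma adjusted p = 0.0320). Its call was lost with NC replicate 1, NC replicate 3, miR-21-3p replicate 1 or miR-21-3p replicate 3 left out (adjusted p up to 0.138). CDK4, the G1 kinase, had 2620, 2920 and 2520 in the NC libraries and 3020, 3000 and 3150 with miR-21-3p. NC replicate 2 came within 80 normalized counts of the lowest miR-21-3p library. The log2 fold change of CDK4 was 0.19 ± 0.06 with an adjusted p just above the threshold (limma adjusted p = 0.0509), and without NC replicate 2 it was 0.25 and called (limma adjusted p = 0.00363). Without NC replicate 3 it was 0.14 (limma adjusted p = 0.213), and with any of the other 4 libraries left out it was not called either (limma adjusted p 0.0704 to 0.160).

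CDKN1A, the inhibitor, had 4310, 3730 and 4240 normalized counts in the NC libraries and 3860, 4070 and 3750 with miR-21-3p. The groups overlapped, with the lowest value in NC replicate 2. The log2 fold change of CDKN1A was -0.07 ± 0.06 (95% interval -0.20 to 0.06, limma adjusted p = 0.459). It ranged from -0.14 without NC replicate 2 to -0.03 without NC replicate 1.

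Levels between genes were compared per kilobase of exon, using merged exon lengths of GENCODE 29. Merged lengths count every annotated exon, so these levels and their order depend on the annotation, which the SDs do not cover. In the NC libraries CCND1 led with 3623 ± 62.1 normalized counts per kb (mean ± SD, n = 3). CDKN1A (1342 ± 104) and CCNB1 (1315 ± 134) came next and their ranges overlapped. CDK1 (1033 ± 116) and CCNA2 (1027 ± 108) also overlapped each other, and the lowest libraries of both (911 for CDK1 and 915 for CCNA2) fell below the highest CDK4 library (922). CDK4 (848 ± 65.7) was followed by CDK2 (565 ± 35.7), CCND3 (151 ± 7.18), CCNE2 (117 ± 10.3) and CCNE1 (22.5 ± 1.82), each apart from the next. Thus the D cyclin CCND1 was more abundant than CCND3 per length, and CCNE2 more than CCNE1. With miR-21-3p, CCNB1 (1781 ± 166), CDK1 (1375 ± 24.2) and CCNA2 (1343 ± 39.4) had means above that of CDKN1A (1277 ± 53.3) on the same scale, but the libraries of CCNA2 and CDKN1A overlapped.

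Exons of 5 of these genes share bases with another measured gene on the opposite strand: CCND1 with LTO1 (497 bases), CDK4 with TSPAN31 (1369), CCNE2 with INTS8 (1629), CCNA2 with EXOSC9 (254) and CDK2 with PMEL (89). The strand setting of the counting was not given in the sources used here, so these 5 values may hold reads of the other gene. They may also lack reads of their own from the shared bases.

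The S and mitotic genes were then set against the G1 genes inside each library, as the mean log2 level per kb of CCNA2, CCNB1 and CDK1 minus that of CCND1, CCND3 and CDK4. This difference was 0.39, 0.60 and 0.58 in NC replicates 1 to 3. It was 0.78, 0.73 and 0.76 with miR-21-3p. All 3 miR-21-3p libraries were above all NC libraries, with means of 0.76 ± 0.03 and 0.53 ± 0.12 (SD, n = 3 each). The S and mitotic mean differed by 0.42 and the G1 mean by 0.18 between the groups, in the same direction, so the difference between the sets grew by 0.23. It is a description with no p, since the genes were chosen with results known. Without NC replicate 1, the lowest library, it was 0.16.

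The study measured cyclin D1 transcript against beta-actin (ACTB) by quantitative PCR in other cultures, given a higher dose of the mimic. It reported more cyclin D1 transcript there with the miR-21-3p mimic. A CCND1 to ACTB ratio was taken here from the sequencing values. The dose and the assay differ, so it is not a like-for-like check. ACTB, which encodes a cytoskeletal actin and often serves as a reference, was itself higher with the mimic. Its normalized counts were 28900, 35000 and 30100 in the NC libraries and 39600, 38400 and 43000 with miR-21-3p. ACTB rose by 0.37 ± 0.07 (log2 fold change ± SE, limma adjusted p = 0.0112), a call lost without NC replicate 3 (adjusted p = 0.0684) or miR-21-3p replicate 1 (adjusted p = 0.0534) in the limma fit. The log2 ratio of CCND1 to ACTB was therefore lower with the mimic, at -1.07, -1.02 and -1.18 against -0.75, -0.98 and -0.78 in the NC libraries. The means were -1.09 ± 0.08 and -0.84 ± 0.12 (SD, n = 3 each), a difference of -0.26 (two-sided exact permutation p = 0.10, the smallest that 3 against 3 allows). Against GAPDH, a glycolytic enzyme, the difference was -0.0150 (exact permutation p = 0.80) and the groups overlapped. Against the mean of 9 reference genes it was -0.0331 (exact permutation p = 0.50), again with overlap. Both overlaps rested on NC replicate 2, without which the differences were -0.0916 to GAPDH and -0.0695 to the mean of 9, with all miR-21-3p libraries below both NC libraries. To GAPDH the difference was 0.0238 without NC replicate 1 and 0.0226 without NC replicate 3, so its sign was not fixed. So CCND1 was above its NC level on the normalized count scale and below it relative to ACTB. Of the 9 reference genes, ACTB, HPRT1 and PPIA were called higher and 0 lower, beside 6.11% and 4.66% of all genes tested. Without NC replicate 3 or miR-21-3p replicate 1, 0 of the 9 were higher, beside 0.642% and 0.987% of all genes tested. The count was 1 without NC replicate 1 (all genes 2.12%) or miR-21-3p replicate 3 (1.37%), and 5 without NC replicate 2 (11%). HPRT1 and PPIA each lost the call without NC replicate 1, NC replicate 3, miR-21-3p replicate 1 or miR-21-3p replicate 3.

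**Figure D3:**
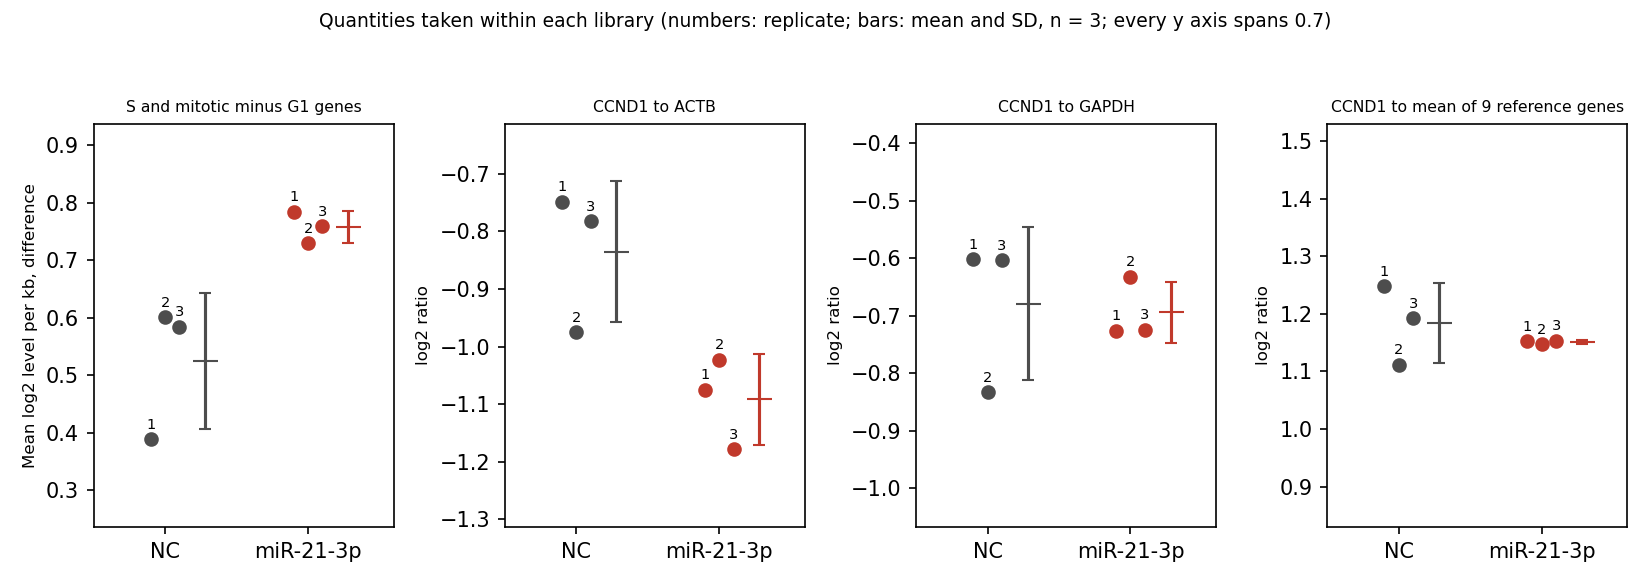
Quantities taken within each library, NC and miR-21-3p, with replicate numbers and the mean and SD (n = 3); every y axis spans 0.7 on the log2 scale. The first panel is the S and mitotic minus G1 level per kb (0.39 to 0.60 against 0.73 to 0.78), and the others are the log2 ratios of CCND1 to ACTB, to GAPDH and to the mean of 9 reference genes, apart between groups for ACTB and overlapping for the others.

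Other genes of the machinery were counted from lists, each beside the 6.11% of all tested genes called higher and the 4.66% called lower. Of 7 other cell cycle cyclins and CDKs measured, 2 were higher and 1 lower. CCNB2, the second B cyclin, rose by 0.37 ± 0.07 (limma adjusted p = 0.00941), and CCNF, an F-box protein named as a cyclin, by 0.31 ± 0.06 (limma adjusted p = 0.0121). CDK6, the other kinase of D cyclins, went the other way, with 5220, 5250 and 5340 normalized counts in the NC libraries and 4790, 4890 and 4590 with miR-21-3p. CDK6 fell by 0.15 ± 0.04 (SE) on the log2 scale (limma adjusted p = 0.0450), while CDK4 had a positive fold change that was not called. The limma call of CDK6 was lost without NC replicate 1, NC replicate 3, miR-21-3p replicate 1 or miR-21-3p replicate 3 (adjusted p up to 0.172). With a replicate block CDK6 was not called by limma (adjusted p = 0.124) or edgeR (adjusted p = 0.126). Nor was it called by limma with no filter (adjusted p = 0.0506). CCND2, the third D cyclin, had a log2 fold change of 0.15 and was not called (limma adjusted p = 0.139). CCNB2 was not called without NC replicate 3 (limma adjusted p = 0.0536). CCNF was not called without NC replicate 3, miR-21-3p replicate 1 or miR-21-3p replicate 3 (limma adjusted p up to 0.0707). Without NC replicate 3, 0 of the 7 genes were higher and 0 lower, beside 0.642% and 0.547% of all genes tested. Without miR-21-3p replicate 1 (all genes 0.987% and 0.885%) or miR-21-3p replicate 3 (1.37% and 1.1%), 1 was higher and 0 lower.

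Of 6 other CDK inhibitors measured, 1 was called, CDKN3, a phosphatase that acts on CDKs and whose transcript peaks late in the cycle. CDKN3 had 435, 480 and 437 normalized counts in the NC libraries and 603, 620 and 710 with miR-21-3p. It rose by 0.51 ± 0.08 (limma adjusted p = 0.00499). The INK4 inhibitors of CDK4 and CDK6 had fold changes of both signs. CDKN2A (log2 fold change -0.18) and CDKN2B (-0.18) lay lower in all 3 miR-21-3p libraries, and CDKN2C (0.24) and CDKN2D (0.32) lay higher, all 4 with a limma adjusted p of 0.0507 to 0.0711. CDKN1B (p27), which is close to CDKN1A in function, had a log2 fold change of 0.11 and was not called (limma adjusted p = 0.169). Without NC replicate 2, 2 of the 6 inhibitors were higher and 2 lower, beside 11% and 8.99% of all genes tested. With NC replicate 1 left out, 2 were higher and 0 lower, beside 2.12% and 1.55%.

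Among 10 kinases, phosphatases and CKS subunits that act on CDKs, 4 were higher and 1 lower. PKMYT1, an inhibitory kinase of CDK1, rose by 0.34 ± 0.06 (limma adjusted p = 0.00902). CKS2, a CDK-binding subunit, rose by 0.33, PLK1, a mitotic kinase, by 0.29, and CDC25B, a phosphatase that activates CDKs, by 0.17. Thus both an inhibitory kinase and an activating phosphatase of CDK1 were higher. The CDC25B call was lost without NC replicate 1, NC replicate 3, miR-21-3p replicate 1 or miR-21-3p replicate 3 (limma adjusted p up to 0.159). The PLK1 call was lost in the same settings (limma adjusted p up to 0.112). PKMYT1 lost its call without NC replicate 3 (limma adjusted p = 0.0581), and CKS2 without miR-21-3p replicate 1 (limma adjusted p = 0.0558). WEE1, the other inhibitory kinase, had a log2 fold change of 0.08 and was not called (limma adjusted p = 0.226). CDC14B, a phosphatase, fell by 0.27 ± 0.05 on the log2 scale (limma adjusted p = 0.0113). Its call was lost without NC replicate 3, miR-21-3p replicate 1 or miR-21-3p replicate 3 (limma adjusted p up to 0.0697). Of 17 ubiquitin ligase subunits that act on cyclins or CDK inhibitors, 5 were higher and 1 lower. The higher genes include CDC20 (0.39), the mitotic activator of the anaphase-promoting complex, and its enzymes UBE2S (0.43) and UBE2C (0.35), on the log2 fold change scale. The CDC20 call was lost without NC replicate 1, NC replicate 3, miR-21-3p replicate 1 or miR-21-3p replicate 3 (limma adjusted p up to 0.0770). UBE2S lost its call without NC replicate 3, miR-21-3p replicate 1 or miR-21-3p replicate 3, and UBE2C without NC replicate 3. AMBRA1, the substrate receptor through which D cyclins are degraded, was the lower gene, with 1570, 1530 and 1480 normalized counts in the NC libraries and 1360, 1330 and 1240 with miR-21-3p. AMBRA1 fell by 0.22 ± 0.05 on the log2 scale (limma adjusted p = 0.0241). The limma call of AMBRA1 was lost without NC replicate 1, NC replicate 3, miR-21-3p replicate 1 or miR-21-3p replicate 3 (adjusted p up to 0.101). SKP2, the receptor for CDKN1B and CDKN1A, was at -0.02 and not called. Without NC replicate 3, 1 of the 10 CDK regulators and 0 of the 17 ligase subunits were higher, beside 0.642% of all genes tested. The counts were 2 and 2 without NC replicate 1 (all genes 2.12%) and 1 and 2 without miR-21-3p replicate 1 (0.987%). They were 2 and 1 without miR-21-3p replicate 3 (1.37%), and 6 and 8 without NC replicate 2 (11%).

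Of 18 RB, E2F and DREAM regulators tested, 4 were higher and 1 lower. E2F2, an activating E2F, had 1560, 1710 and 1520 normalized counts in the NC libraries and 2150, 2180 and 2270 with miR-21-3p. E2F2 rose by 0.46 ± 0.05 (limma adjusted p = 0.00157). MYBL2 (0.44) and FOXM1 (0.20), which drive transcription of late cell cycle genes, were also higher, as was TFDP1 (0.25), a dimer partner of E2Fs. TFDP2, the other partner, fell by 0.25 on the log2 scale. RB1 was at 0.09 and E2F1 at 0.27, neither called. Without NC replicate 3, miR-21-3p replicate 1 or miR-21-3p replicate 3, 1 regulator was higher (E2F2) and 0 lower. Over all genes tested, 0.642%, 0.987% and 1.37% were higher in those settings, and 0.547%, 0.885% and 1.1% lower. Without NC replicate 1, 2 regulators were higher and 1 lower (all genes 2.12% and 1.55%). With NC replicate 2 left out, 8 regulators were higher and 1 lower (all genes 11% and 8.99%).

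Of 22 p53 and p53 target genes measured besides CDKN1A, 2 were higher and 1 lower, and their median log2 fold change was 0.04. GADD45A, a stress-inducible gene that binds CDKN1A and PCNA, rose by 0.48 ± 0.06 (limma adjusted p = 0.00157). PLK2 rose by 0.22, ZMAT3 fell by 0.29 on the log2 scale, and MDM2 was at 0.08 and not called. The 3 called of 22 are near the 10.8% of all genes tested. Without NC replicate 2, 4 of the 22 were higher and 2 lower, beside 11% and 8.99% of all genes tested. Without NC replicate 3 (all genes 0.642% and 0.547%) or miR-21-3p replicate 1 (0.987% and 0.885%), 1 was higher and 0 lower. Of 16 regulators of CCND1 transcription, 1 was higher and 1 lower. MYC had 3180, 2730 and 2740 normalized counts in the NC libraries and 3760, 3860 and 3590 with miR-21-3p. MYC rose by 0.38 ± 0.06 (limma adjusted p = 0.00554). STAT3 fell by 0.19 ± 0.05 on the log2 scale (limma adjusted p = 0.0281), and EGFR, at -0.21, was not called (limma adjusted p = 0.0564). The STAT3 call was lost without NC replicate 1, NC replicate 3, miR-21-3p replicate 1 or miR-21-3p replicate 3 (limma adjusted p up to 0.114). Without NC replicate 2, 4 of the 16 regulators were higher and 3 lower, beside 11% and 8.99% of all genes tested.

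Periodic genes were counted in lists for G2 and mitosis and for S phase. Of 52 genes of the G2 and mitosis list, 43 were higher and 0 lower, with a median log2 fold change of 0.31. All 52 had a positive fold change. BIRC5 (0.40), CDC20 (0.39), TUBB4B (0.39) and BUB1 (0.39) had the largest, and MKI67, the gene of the Ki-67 antigen and the most abundant of the list, was at 0.38. Of 41 genes of the S phase list, 16 were higher and 0 lower, with a median log2 fold change of 0.28. RRM2, a subunit of ribonucleotide reductase, had 1340, 1980 and 1550 normalized counts in the NC libraries and 2650, 2620 and 3060 with miR-21-3p. RRM2 rose by 0.79 ± 0.11 (limma adjusted p = 0.00335), and MCM6, a subunit of the replicative helicase, by 0.58 ± 0.11 (limma adjusted p = 0.0115). These counts depend on single libraries. The G2 and mitosis list shares CCNB2, CDC20, PLK1 and CKS2, among others, with the lists above. For the G2 and mitosis list and the S phase list respectively, the counts without NC replicate 3 were 5 and 1, beside 0.642% of all genes tested called higher. Without NC replicate 1 they were 20 and 5 (all genes 2.12%), and without miR-21-3p replicate 1 they were 13 and 3 (all genes 0.987%). Without miR-21-3p replicate 3 they were 15 and 3 (all genes 1.37%), and without NC replicate 2 they were 49 and 34 (1627 of the 14795 genes tested).

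Of 30 transcriptional and atypical cyclins and CDKs, which mostly act outside the cell cycle, 1 was higher and 1 lower, with a median log2 fold change of 0.01. With all 6 libraries these shares were near those of all genes tested. Without NC replicate 2, 1 of the 30 was higher and 5 lower, beside 11% and 8.99% of all genes tested. Differences between lists were not tested. The called genes were CCNC (0.26 ± 0.05, limma adjusted p = 0.0142) and its partner in the Mediator kinase module, CDK8, which fell by 0.36 ± 0.07 on the log2 scale (limma adjusted p = 0.0109). A cyclin and its own kinase thus moved in opposite directions. Without NC replicate 3 neither CCNC (limma adjusted p = 0.0536) nor CDK8 (limma adjusted p = 0.0647) was called, and without miR-21-3p replicate 1 CCNC was not (limma adjusted p = 0.0766).

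**Figure D4:**
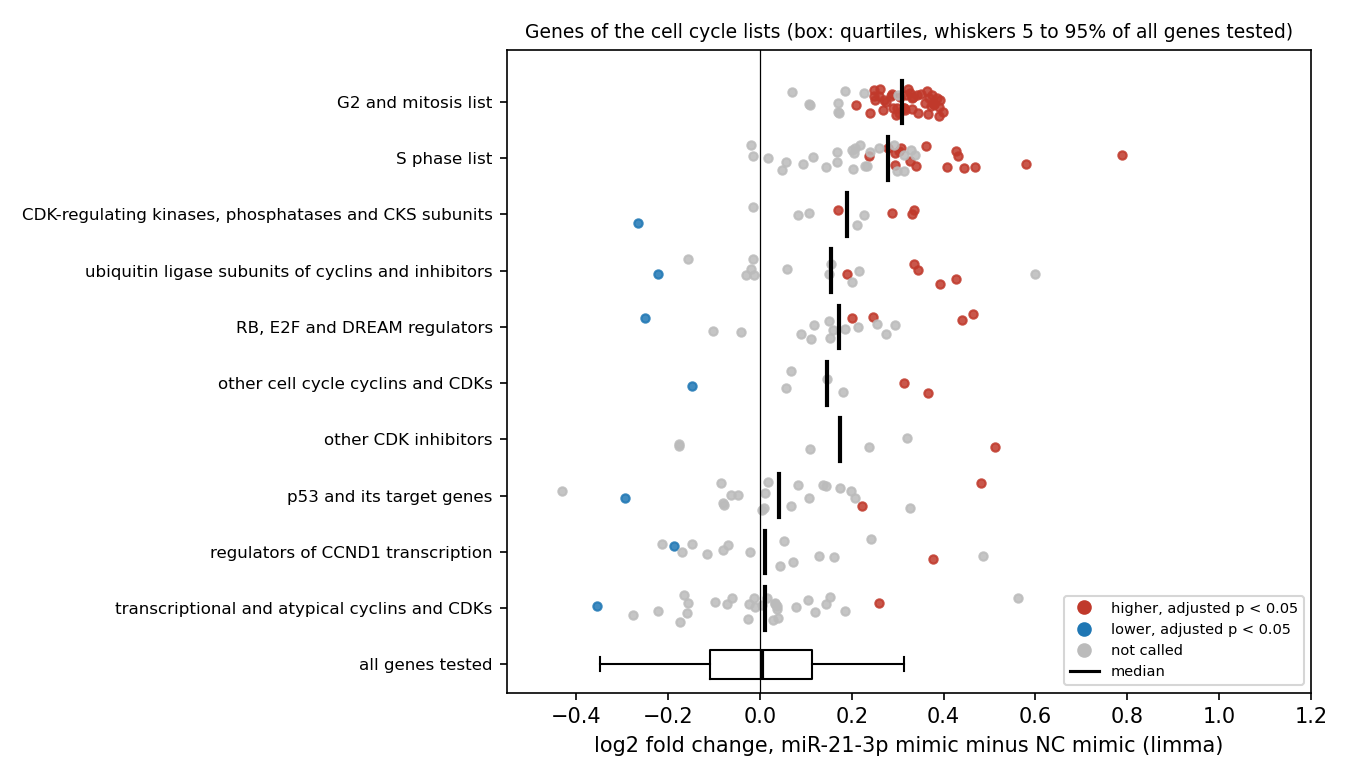
log2 fold change of each measured gene (points) in 10 lists, with the list median (black bar), and all 14795 genes tested as a box (quartiles) with whiskers (5 to 95%). The G2 and mitosis list lies wholly above 0 with a median of 0.31, and the transcriptional and atypical cyclins and CDKs center on 0.01.

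The tested genes whose log2 level was most like that of CCND1 over the 6 libraries were IL1B, PDAP1, IFIT1, PRNP and TREML2, with Pearson r of 0.99 to 1.00. All 5 were called higher, from 0.20 for PRNP to 1.25 for TREML2 on the log2 fold change scale. For CDKN1A they were PDK2, RP11-694I15.7, WDTC1, PDIA2 and SFXN3 (Pearson r 0.98 to 0.99), and none of these 5 was called by limma. These are the highest of 14794 correlations each over 6 libraries in 2 treatment groups, and carry no p. Of the 43 called genes outside the 10 that a naming rule or this likeness picked, 33 lost the call under at least 1 alternative. The 10 that did not were BIRC5, CDKN3, E2F2, GADD45A, IL1B, KRT6A, MYC, PDAP1, RRM2 and TREML2.

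Markers of keratinocytes were abundant. The sum of 13 keratinocyte markers was 403413, 380100 and 401996 normalized counts in the NC libraries and 396301, 410455 and 376652 with miR-21-3p, led by KRT5. KRT6A, a keratin of activated keratinocytes, rose by 0.34 ± 0.04 (limma adjusted p = 0.00207), and ITGB4 fell by 0.26 on the log2 scale. The ITGB4 groups overlapped. Its limma call was lost without NC replicate 1, NC replicate 3, miR-21-3p replicate 1 or miR-21-3p replicate 3 (adjusted p up to 0.145). Of the 13 keratinocyte markers, 1 was higher and 1 lower, beside 6.11% and 4.66% of all genes tested. Without NC replicate 2, 1 marker was higher and 3 lower, beside 11% and 8.99%. Of the markers of other cell types, 1 fibroblast gene (COL1A1), 2 melanocyte genes (PMEL and MITF), 1 immune gene (CD14) and 1 endothelial gene (VWF) were measured and none was called by limma. COL1A1 had 560, 390 and 478 normalized counts in the NC libraries and 372, 378 and 364 with miR-21-3p, a log2 fold change of -0.34 (limma adjusted p = 0.0641). It was called lower without NC replicate 2, and its part in the results was not tested.

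**Figure D5:**
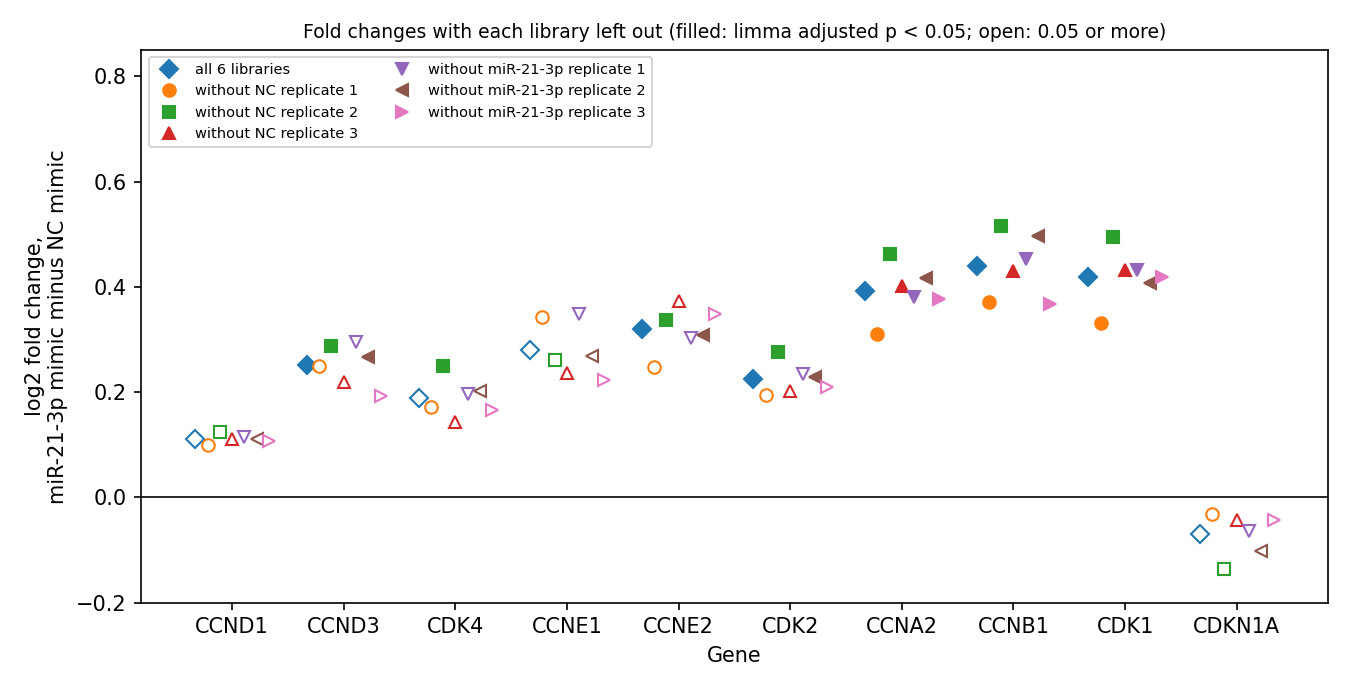
log2 fold change of each of the 10 genes (y axis) with all 6 libraries and with each library left out in turn; filled symbols have a limma adjusted p under 0.05. CCNA2, CCNB1 and CDK1 are filled in every case, and CCND1, CCNE1 and CDKN1A in none.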

How the data were processed

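The deposited signal values are normalized counts: the authors divided gene counts by a size factor per library, and the file gives them to 3 significant digits. Upstream, reads were trimmed with cutadapt 1.15, aligned with TopHat2 2.1.1, counted with featureCounts of Subread 1.5.2 and normalized with DESeq2. The genome build was not given in the sources used here. Count data had been planned for, so the planned fallback for normalized values was used. Genes with at least 10 normalized counts in at least 3 libraries were tested with limma (trended variance) on log2(value + 1), miR-21-3p minus NC. P-values were adjusted over all 14795 genes by Benjamini-Hochberg, with calls under 0.05, and they measure only the spread between these libraries. For tools that need counts, read numbers were recovered from the value of 1 read in each library (values under 100 whole within 0.1 read in 100% of cases). Because of the 3 digits, only 56.8% to 64.8% of the values above 0 in a library had 1 possible read number. The other recovered numbers are approximate. The members and lists were chosen with earlier results of these data known. Named in each list were at most 4 called genes per direction with the largest changes, and genes with a role beside a member. ACTB and the 5 genes most like CCND1 and CDKN1A were also named. MKI67 and some named genes that were not called were chosen after their values were seen. Software was R 4.3.3, limma 3.58.1, edgeR 4.0.16, DESeq2 1.42.0, Python 3.11.15, numpy 2.4.6, pandas 2.3.3, scipy 1.17.1 and matplotlib 3.10.9.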

Additional observations from a re-analysis of the deposited data

How the results depend on the processing

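Of 21 alternatives, 18 can change a fold change and 3 only a p or a threshold. The 180 fold changes of the 10 genes under the 18 kept their direction, and 190 of 210 results kept their side of the threshold. The edgeR TMM, limma block, pseudocount, unfiltered limma and equal-total alternatives were chosen after seeing the data. With 1 library left out, the genes called ran from 176 (without NC replicate 3) to 2957 (without NC replicate 2), against 1593, and 243 were called at a limma adjusted p under 0.01. Of the 10 genes, 3 to 7 were called with 1 library left out and 3 at 0.01. With 1 library left out, log2 fold changes ran from 0.19 to 0.30 for CCND3, 0.14 to 0.25 for CDK4, 0.25 to 0.37 for CCNE2 and 0.19 to 0.28 for CDK2. CCND3 (0.25), CCNE2 (0.32) and CDK2 (0.22) were not called at 0.01. CDK4 was called by DESeq2 (0.18) and by edgeR with no filter (0.18). Whether replicate numbers pair the cultures is not known, and 3 libraries per group cannot settle it. Deviations correlated at -0.00, -0.20 and -0.16 between libraries of the same number. Between libraries of different numbers they correlated at -0.13 to 0.27. With a replicate block, edgeR called 1183 genes and limma 1193, and CCND3 was not called by either (log2 fold change 0.25 in both). The CCND1 ratio difference of -0.26 to ACTB ran from -0.326 to -0.213 with 1 library left out, and was -0.0150 to GAPDH and -0.0331 to the mean of 9 reference genes. With 1 library left out, an alternative also added after seeing the data, these ran from -0.0916 to 0.0238 and from -0.0695 to -0.00102, both lowest without NC replicate 2. The causes of these changes were not tested. CCNE1 had the fewest reads of the 10 genes, 54 to 84 per library.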
